A study of Homo sapiens with 6 samples.

Results

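Interferon genes and the genes that interferon induces formed a set of 54 human genes in 13 functional roles. They were chosen by name from the known pathway with earlier results of these data known. The shares below therefore describe this list and are no independent test of it. A probe belonged to the set where its annotated RefSeq transcript was one of a member gene, with RIGI standing for the former DDX58. Probes matched 52 of the 54 genes, and 44 genes could be tested, having a probe that cleared the background on both arrays of 1 group or more. These 44 were among 11974 genes tested, of 21743 genes named on the array.

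Total RNA of MDA-MB-231, a human breast cancer line of mesenchymal type, was measured on 6 single-colour Agilent SurePrint G3 Human GE arrays. All 3 groups were transfected at 30 nM: 2 arrays held cells given a precursor of hsa-miR-205-5p, 2 held cells given one of hsa-miR-214-3p, and 2 held control cells given a scrambled precursor, each 72 h after transfection. Precursors of this kind put far more miRNA into a cell than it normally holds, and the control group was transfected as well, so no array shows untransfected cells. The labels number the arrays of a group as replicates without saying that they were separate cultures, and the p-values then measure only the spread between these arrays, which may be technical.

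The interferon system begins with sensors of foreign RNA in the cytoplasm and endosome, which switch on interferon genes through IRF transcription factors. Secreted interferons, among them the lambda interferons made by epithelial cells, bind receptors that activate JAK kinases, and a transcription factor complex that holds STAT2 and IRF9 then turns on a large set of antiviral genes. Many of these gene products bind viral RNA, cut it, or attach the ubiquitin-like protein ISG15 to other proteins. Epithelial tumour lines can keep part of this program active at rest.

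The 2 transfected miRNAs are shown for their seeds, which are different, with the seed (bases 2 to 8) in capitals. Both sequences were taken from RefSeq on GRCh38.p14, at chr1:209432166-209432187 on the plus strand and chr1:172138816-172138837 on the minus strand.
hsa-miR-205-5p: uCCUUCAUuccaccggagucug
hsa-miR-214-3p: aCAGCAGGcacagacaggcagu

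Promoter stretches of 80 bases are shown for genes that moved in opposite directions below, because GAAANNGAAA stood before genes of both directions. Capitals mark GAAANNGAAA on either strand, the core of the interferon-stimulated response element, and in IRF1 the letters TTCNNNGAA, the core of the gamma-activated element. The stretches came from RefSeq on GRCh38.p14 and are written in the direction of the gene: IFNL1 chr19:39296161-39296240 (plus), IFNL2 chr19:39268185-39268264 (plus), IFIT1 chr10:89392478-89392557 (plus), IFIT3 chr10:89332421-89332500 (plus), LGALS3BP chr17:78979937-78980016 (minus), PARP12 chr7:140062952-140063031 (minus) and IRF1 chr5:132490854-132490933 (minus).
IFNL1: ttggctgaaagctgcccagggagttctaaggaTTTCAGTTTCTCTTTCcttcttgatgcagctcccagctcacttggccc
IFNL2: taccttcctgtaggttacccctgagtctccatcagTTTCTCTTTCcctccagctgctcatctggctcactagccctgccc
IFIT1: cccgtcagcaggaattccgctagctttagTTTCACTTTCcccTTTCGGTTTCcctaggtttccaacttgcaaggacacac
IFIT3: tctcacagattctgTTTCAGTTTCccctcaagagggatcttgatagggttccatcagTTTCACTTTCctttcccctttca
LGALS3BP: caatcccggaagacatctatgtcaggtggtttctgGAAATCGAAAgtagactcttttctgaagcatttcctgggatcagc
PARP12: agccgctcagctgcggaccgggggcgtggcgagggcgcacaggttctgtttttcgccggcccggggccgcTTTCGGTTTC
IRF1: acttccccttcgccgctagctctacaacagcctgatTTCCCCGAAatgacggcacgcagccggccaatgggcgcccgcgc

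A promoter entry matched 45 of the 54 genes. Within the 250 bases before the start, GAAANNGAAA stood in 29 of the 45 (64.4%), against 3.71% of 27305 genes with an entry. TTCNNNGAA, which reads the same on both strands, stood in 14 of the 45 (31.1%), against 8.09% of all. Matches of the 2 motifs can overlap, and a match describes the letters and is not a binding site.

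Signals are given as normalized log2 signal, the log2 of the processed intensity minus that of the array's 75th percentile, so that negative values lie below that percentile. Probe brightness differs between probes, and the values can be set side by side only within a gene. A gene was called at a limma adjusted p below 0.05 together with a 2-fold change or more, and the log2 fold changes below are positive where the group named first was higher. In RNA from whole cultures, fewer cells of a kind and less RNA per cell cannot be told apart.

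Between 35.4% and 42.2% of the spots on an array were well above background, and none was saturated. All arrays lay on 1 slide. Of 6 genes that mark this line, all 6 were above background on every array. Of 5 genes that it was taken to lack, ESR1 and PGR were above background on no array, while GATA3, CDH1 and EPCAM were above it on all 6. Of 9 leukocyte markers, CD14 was above background on all 6 arrays, PTPRC on 2 and 6 others on none, and LYZ matched no probe. The epithelial markers CDH1 and EPCAM and the monocyte marker CD14 were also called higher with miR-205-5p than in the control, with log2 fold changes of 1.97 (adjusted p = 0.00797), 2.4 (adjusted p = 0.00887) and 1.14 (adjusted p = 0.0244), and of these CDH1 and EPCAM were called higher than with miR-214-3p (2.18 and 2.33). CDH1 read 0.87 and 0.61 with miR-205-5p and at most -1.11 on the other arrays, EPCAM 3.21 and 2.77 against at most 0.83, and CD14 2.09 and 2.28 against at most 1.74. The call of CD14 was lost in 11 of 21 alternative settings, and normexp took CDH1 under the 2-fold limit, to 0.76 against the control and 0.75 between the miRNAs. The part of these markers in the results below was not tested.

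With miR-205-5p the interferon genes moved both ways, 5 of the 44 up and 5 down. The rising share was 11.4%, against 4.79% over the whole array. The falling share was 11.4% against 7.99%, and without the fold limit 11.4% against 11.3%. Median scaling put the falling share below that of all genes, at 13.6% against 15.7%. The falls therefore do not set these genes apart from all genes in every setting. Calls in both directions depended on single arrays, as given below. The lambda interferons IFNL1 and IFNL2 and the effectors IFIT1, IFIT2 and MX2 rose, and the transcription factor IRF1, the effector IFIT3, and IFI35, PARP12 and LGALS3BP fell. With miR-214-3p the sensor TLR3 was called lower than in the controls, and so was IFNL2, whose miR-214-3p signals were not well above background and gave a bound short of 2-fold. Among called genes the largest differences lay between the miRNAs, where IFNL2 was higher and IFIT3 10.5-fold lower with miR-205-5p.

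**Figure D1:**
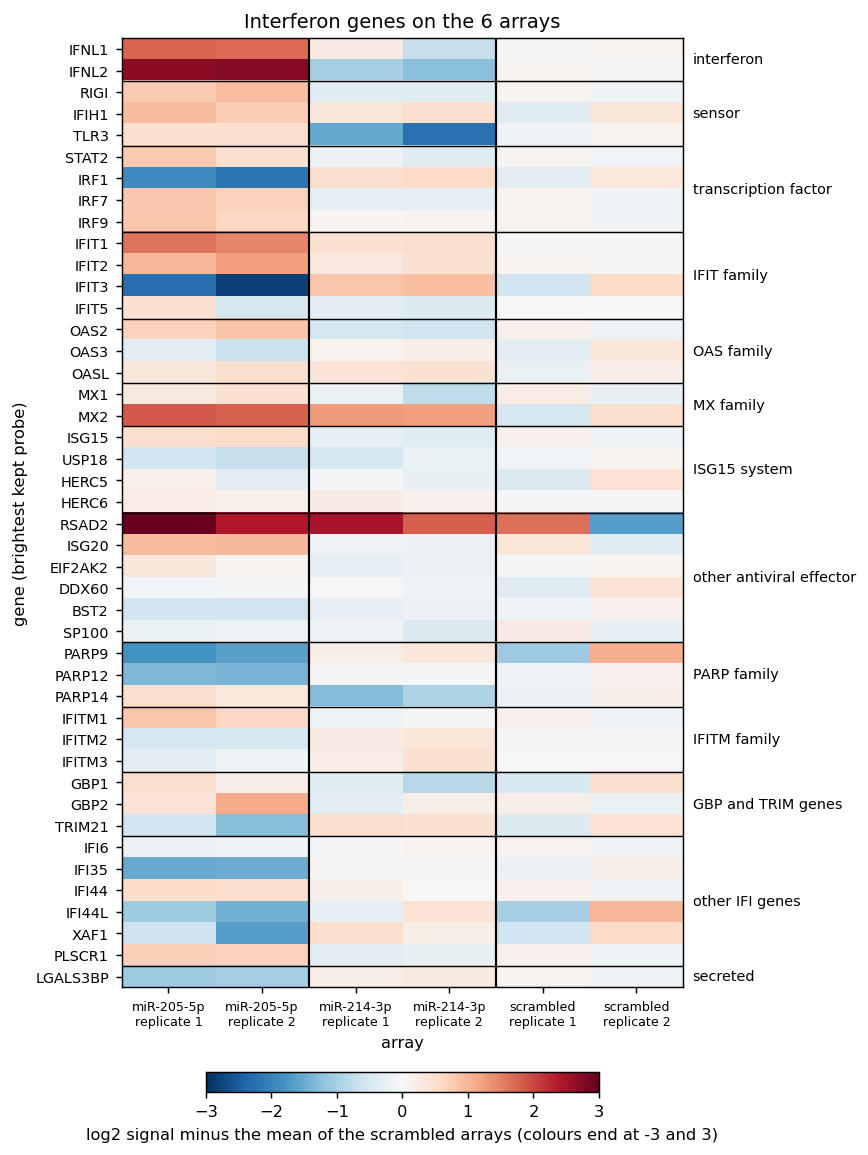
The 44 interferon genes tested (rows, grouped by role) on the 6 arrays (columns), coloured by log2 signal minus the mean of the scrambled arrays, red above and blue below. Both miR-205-5p arrays are red for IFNL1, IFNL2, IFIT1 and MX2 and blue for IRF1, IFIT3, IFI35 and PARP12, and the scrambled arrays differ from each other in RSAD2, PARP9 and IFI44L.

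Against the scrambled control, 5 of the 44 genes tested (11.4%) rose with miR-205-5p, where 4.79% of all genes tested were called higher, and 5 (11.4%) fell, where 7.99% of all genes were called lower. Without the fold limit, 11 genes (25%) were higher, against 9.77% of all genes, and the lower ones stayed at 5, against 11.3%. The 6 added genes were IFITM1, IRF7, IRF9, OAS2, PLSCR1 and RIGI, with log2 fold changes of 0.69 to 0.85. Both miR-205-5p arrays lay above both scrambled arrays in 24 of the 44 genes, 54.5% against 36.5% of all genes, and below both in 14, 31.8% against 28.7%. The median log2 fold change of the 44 genes was 0.36, and that of all genes tested 0.08; scaling to each array's median moved them to -0.02 and -0.31. With that scaling 4 genes (9.09%) were called higher, against 1.75% of all genes, and 6 (13.6%) lower, against 15.7%, so that the share of lower genes lay below that of all genes.
These counts changed when single arrays were left out. Without miR-205-5p replicate 2, limma called 0 of these genes in either direction and 0 of all genes, although 4 higher and 5 lower had an unadjusted p below 0.05 and changed 2-fold or more. The methods' t-test on the 6 arrays likewise called 0 and 0 after Benjamini-Hochberg adjustment, and 4 and 4 without it. Fewer of these genes were also called without miR-205-5p replicate 1 or without either miR-214-3p array. Over all omissions of 1 array the median log2 fold change of the genes was 0.18 to 0.38, and that of all genes tested 0.03 to 0.13. Over the 34 genes above background on all 6 arrays, IFIT1 and IFIT2 were called higher, 5.88% against 5.11% of all genes passing that filter, and the same 5 genes lower, 14.7% against 7.27%.

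Against the same scrambled arrays, 2 of the 44 genes (4.55%), TLR3 and IFNL2, were called lower with miR-214-3p, where 2.02% of all genes were called lower. The call of IFNL2 used signals not well above background, and on the bound given below its difference was at least 1.92-fold, short of the 2-fold limit. In the other direction limma called 0 of the 44, against 1.09% of all genes, and the methods' t-test called 0 with or without adjustment. With limma 2 genes, IFIT1 and MX2, had an unadjusted p below 0.05. MX2 also passed 2-fold on the processed signals, but 1 of its 2 control arrays was not well above background, so that its size is not known. Both miR-214-3p arrays lay below both scrambled arrays in 13 genes, 29.5% against 30.8% of all genes, and above both in 12, 27.3% against 27.7%. Dropping the fold limit added no gene, with 2.08% of all genes then lower and 1.2% higher. The median log2 fold change was -0.04, and that of all genes -0.01. Both calls were lost without miR-205-5p replicate 1 or 2, miR-214-3p replicate 1 or 2, or scrambled replicate 1, each of which left 0 genes lower, and without scrambled replicate 2 there were 2 lower (4.55% against 4.13% of all genes) and 3 higher (6.82% against 5.46%).

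Set against miR-214-3p directly, miR-205-5p had 9 of the 44 genes (20.5%) higher, where 9.18% of all genes were called higher, and 6 (13.6%) lower, where 11.3% were. Both miR-205-5p arrays lay above both miR-214-3p arrays in 22 genes, 50% against 45.7% of all genes, and below both in 15, 34.1% against 34.7%. Without the fold limit 15 genes (34.1%) were higher, against 17.9% of all genes, and 7 (15.9%) lower, against 16%. The median log2 fold change was 0.43, and that of all genes 0.12. It was 0.14 with normexp, 0.21 with median scaling and 0.28 without miR-205-5p replicate 1, where that of all genes was 0.05, -0.1 and 0.09. Fewer genes were called higher without miR-205-5p replicate 1 or either miR-214-3p array, and fewer lower without either miR-214-3p array. Over all omissions of 1 array the median was 0.28 to 0.49, and that of all genes 0.09 to 0.16. The split of 9 higher to 6 lower became 7 to 7 with quantile normalization, 6 to 7 on the authors' table and 5 to 7 with median scaling. The median of all genes moved in the same settings, from 0.12 to 0.07, 0.07 and -0.1, so that the split alone does not describe the set against all genes.

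**Figure D2:**
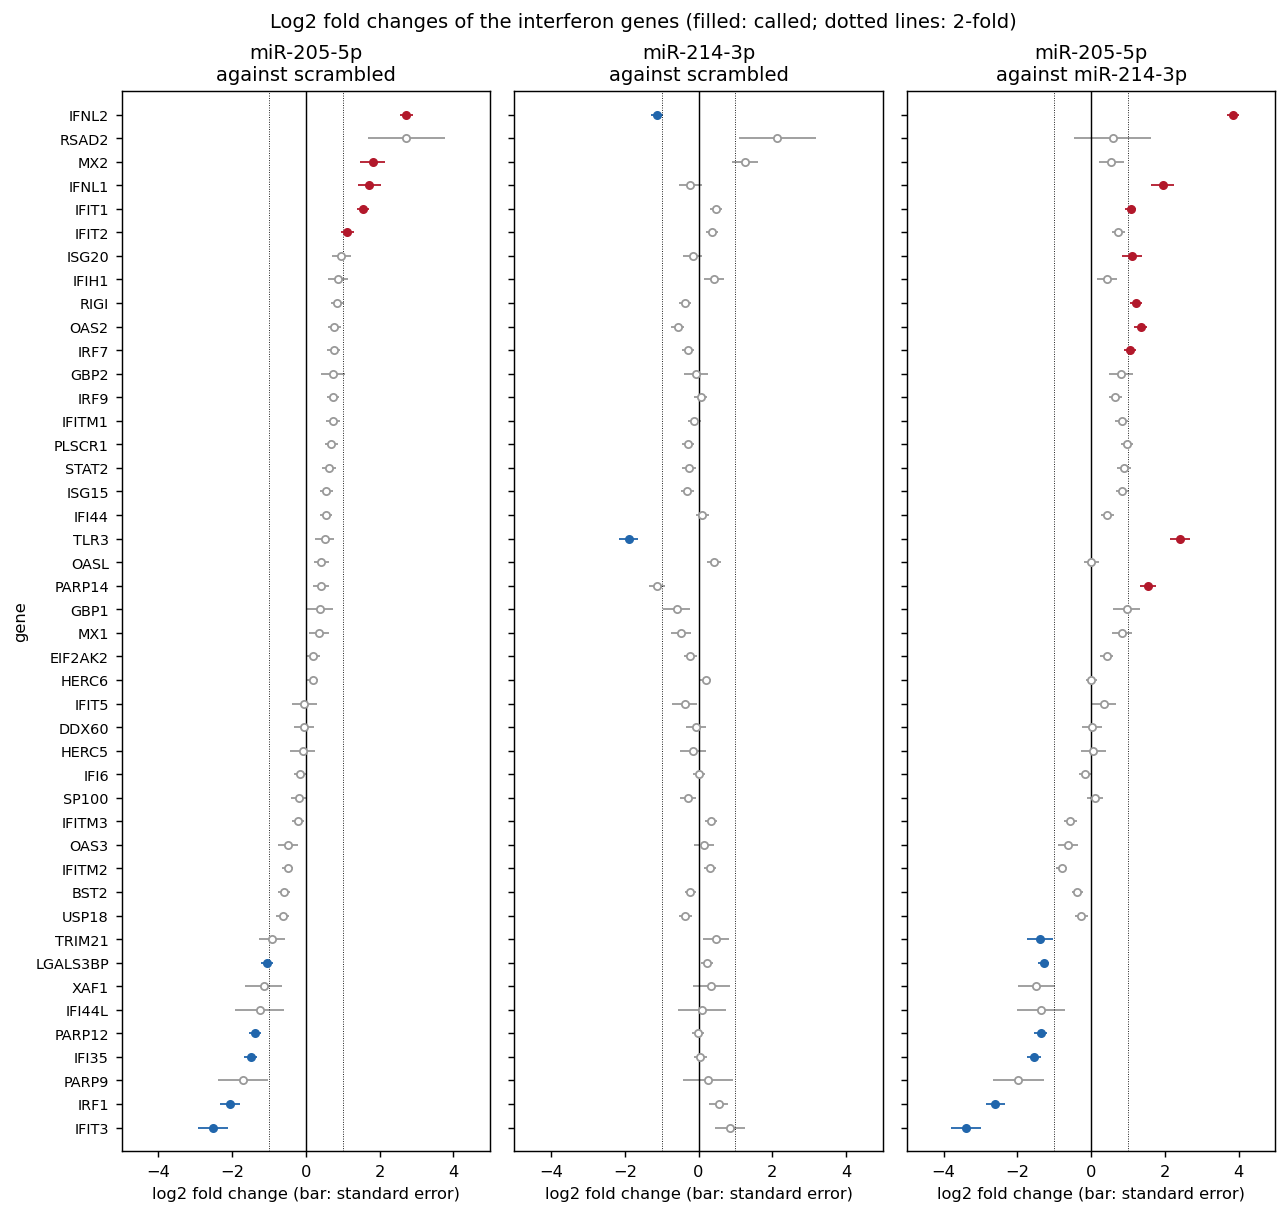
Log2 fold change of each of the 44 genes in the 3 comparisons, with bars of 1 standard error from the limma model and filled points for called genes. The comparison of miR-205-5p with the control holds 5 called genes on each side, that of miR-214-3p holds 2, both lower, and the widest bars belong to RSAD2.

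IFNL2 had the largest rise among the called genes. IFNL2, a lambda interferon, read 1.67 and 1.74 on the miR-205-5p arrays, -2.02 and -2.26 on the miR-214-3p arrays, and -0.96 and -1.07 on the scrambled arrays. The 3 groups did not overlap, with miR-205-5p highest and miR-214-3p lowest. The log2 fold change was 2.72 ± 0.17 (SE, adjusted p = 0.00797), or 6.58-fold higher, with miR-205-5p against the control. With miR-214-3p IFNL2 was well above background on neither array, so that only a bound can be given, taken from the lowest signal well above background on each of those arrays or the probe's own value where that was higher. On this bound, which holds for the processed signal only, IFNL2 was at least 1.92-fold lower than in the control (adjusted p = 0.0405), and with miR-205-5p at least 12.6-fold higher than with miR-214-3p (adjusted p = 0.00386). This last call passed in 20 of 20 alternative settings, with an adjusted p that reached 0.05 after rounding when miR-214-3p replicate 2 was left out. Its size was smaller with normexp background correction, which adds an offset to every signal: the log2 fold change was then 1.39 between the miRNAs and 1.32 with miR-205-5p against the control. With miR-214-3p against the control, normexp left -0.07 (adjusted p = 0.793), and that call was lost in 10 of 20 alternative settings.

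IFNL1, another lambda interferon, read -0.08 and -0.14 with miR-205-5p, -1.59 and -2.51 with miR-214-3p, and -1.88 and -1.78 with the scrambled control. Both miR-205-5p arrays lay above the other 4, and the other groups overlapped, with miR-214-3p above background on 1 of its 2 arrays. IFNL1 was 3.3-fold higher with miR-205-5p than in the control (log2 fold change 1.72 ± 0.32, adjusted p = 0.0227) and 3.83-fold higher than with miR-214-3p (adjusted p = 0.0113). The second size is uncertain, since miR-214-3p replicate 2, at -2.51, lay below the lowest signal well above background on that array (-1.88). Against the control, miR-214-3p gave a log2 fold change of -0.22 ± 0.32 (adjusted p = 0.729). With normexp both calls of IFNL1 were lost, at 0.56 against the control and 0.43 between the miRNAs. Against the control the call was also lost without miR-205-5p replicate 1 (1.69, adjusted p = 0.0875), miR-205-5p replicate 2 (1.75, adjusted p = 0.0944) or scrambled replicate 2 (1.77, adjusted p = 0.0667).
IFNB1, the beta interferon, read -3.62 and -3.73, -4.37 and -4.16, and -4.5 and -4.78 in the same order and was well above background on no array. IFNL3, a near-identical paralog of IFNL2 that was not a member, read -2.69 and -1.65 with miR-205-5p and at most -3.84 on the other arrays, and was above background on none. Transcripts of these paralogs are so alike that the probe labelled IFNL2 may bind both, and its value is uncertain in that respect.

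Of the sensors of double-stranded RNA, none passed the 2-fold limit with miR-205-5p against the control. RIGI, the RIG-I sensor of the cytoplasm, read 4.63 and 4.77 with miR-205-5p, 3.48 and 3.49 with miR-214-3p, and 3.96 and 3.74 with the control. The groups did not overlap and stood in the order miR-205-5p, control, miR-214-3p. The difference between the miRNAs was called, at 2.32-fold (log2 fold change 1.22 ± 0.17, adjusted p = 0.00723), and that of miR-205-5p to the control was 0.85 ± 0.17 on the log2 scale (adjusted p = 0.0257).
TLR3, the endosomal sensor, read 0.77 and 0.81 with miR-205-5p, -1.27 and -1.97 with miR-214-3p, and 0.17 and 0.38 with the control. Both miR-214-3p arrays were the lowest, and only 1 of them was above background, so that the sizes of the differences to them are uncertain. TLR3 was 3.72-fold lower with miR-214-3p than in the control (log2 fold change -1.89 ± 0.26, adjusted p = 0.0374) and 5.3-fold higher with miR-205-5p than with miR-214-3p (adjusted p = 0.00492). With normexp these log2 fold changes were -0.68 and 0.9, under the 2-fold limit, and the call against the control was lost in 10 of 20 alternative settings. IFIH1, the MDA5 sensor, was not called in any comparison, with a log2 fold change of 0.87 ± 0.27 with miR-205-5p against the control (adjusted p = 0.0799).

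Of the 4 transcription factors, 1 fell with miR-205-5p and the other 3 had positive log2 fold changes under 2-fold. IRF1, which drives part of the interferon program and is itself induced by interferon, read 1.12 and 0.85 with miR-205-5p, 3.54 and 3.64 with miR-214-3p, and 2.72 and 3.36 with the control. Both miR-205-5p arrays lay far below the other 4, and both miR-214-3p arrays above the controls. IRF1 fell 4.16-fold with miR-205-5p against the control (log2 fold change -2.06 ± 0.26, adjusted p = 0.0105) and was 6.08-fold lower than with miR-214-3p (adjusted p = 0.00416). The log2 fold change of 0.55 ± 0.26 with miR-214-3p against the control did not pass the test (adjusted p = 0.28).
IRF7, the factor that amplifies interferon transcription, read 5.92 and 5.78 with miR-205-5p, 4.81 and 4.8 with miR-214-3p, and 5.21 and 4.99 with the control. The groups did not overlap, and the order was that of RIGI. IRF7 was 2.07-fold higher with miR-205-5p than with miR-214-3p (adjusted p = 0.0105) and 1.69-fold higher than in the control (adjusted p = 0.0347), below the fold limit. The call between the miRNAs was lost in 8 of 21 alternative settings, with a log2 fold change of 0.82 with median scaling, 0.91 with quantile normalization or on the authors' table and 0.99 with normexp. STAT2 and IRF9, which act in a complex downstream of the receptors, had log2 fold changes of 0.63 ± 0.19 (adjusted p = 0.0725) and 0.73 ± 0.17 (adjusted p = 0.0394) with miR-205-5p against the control.

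The IFIT genes, neighbours on chromosome 10 whose products bind foreign RNA, split by direction on the probes that represented them. IFIT1 and IFIT3 had 1 kept probe each, so that the direction of neither could be checked on another probe. IFIT1 read 7.46 and 7.28 with miR-205-5p, 6.29 and 6.3 with miR-214-3p, and 5.8 and 5.85 with the control. No groups overlapped, and the control was the lowest. IFIT1 was 2.92-fold higher with miR-205-5p than in the control (log2 fold change 1.54 ± 0.16, adjusted p = 0.00838) and 2.1-fold higher than with miR-214-3p (adjusted p = 0.00865). The second call was lost in 7 of 21 alternative settings, with a log2 fold change of 0.85 to 0.86 under quantile normalization, median scaling or on the authors' table, and the first in 2.
IFIT2 followed the same order, with 6.95 and 7.18, 6.24 and 6.41, and 6 and 5.9. Its groups did not overlap either. The rise with miR-205-5p over the control was 2.17-fold (log2 fold change 1.12 ± 0.17, adjusted p = 0.0152), and a dimmer probe of IFIT2 gave 0.76 ± 0.24 without passing the test (adjusted p = 0.0807). The call was lost in 12 of 21 alternative settings: the log2 fold change was 0.7 with normexp, 0.73 with median scaling and 0.94 with quantile normalization or on the authors' table, all under the 2-fold limit, and the adjusted p was 0.0578 with only the 4 arrays compared.
IFIT3, which binds and stabilises IFIT1, read 2.17 and 1.63 with miR-205-5p, 5.26 and 5.33 with miR-214-3p, and 3.85 and 5.01 with the control. Both miR-205-5p arrays were the lowest, and the control arrays lay 2-fold or more apart with replicate 1 the lower. IFIT3 fell 5.8-fold with miR-205-5p against the control (log2 fold change -2.53 ± 0.41, adjusted p = 0.0175) and was 10.5-fold lower than with miR-214-3p (adjusted p = 0.00571). The call against the control was lost in 8 of 21 alternative settings, among them the 4 arrays alone (adjusted p = 0.0535) and the omission of either miR-205-5p array (adjusted p = 0.0524 and 0.0839), and the call between the miRNAs in 1. IFIT5 had a log2 fold change of -0.04 ± 0.33 with miR-205-5p (adjusted p = 0.942). The stretches printed above hold 2 GAAANNGAAA matches in IFIT1 and 2 in IFIT3.

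**Figure D3:**
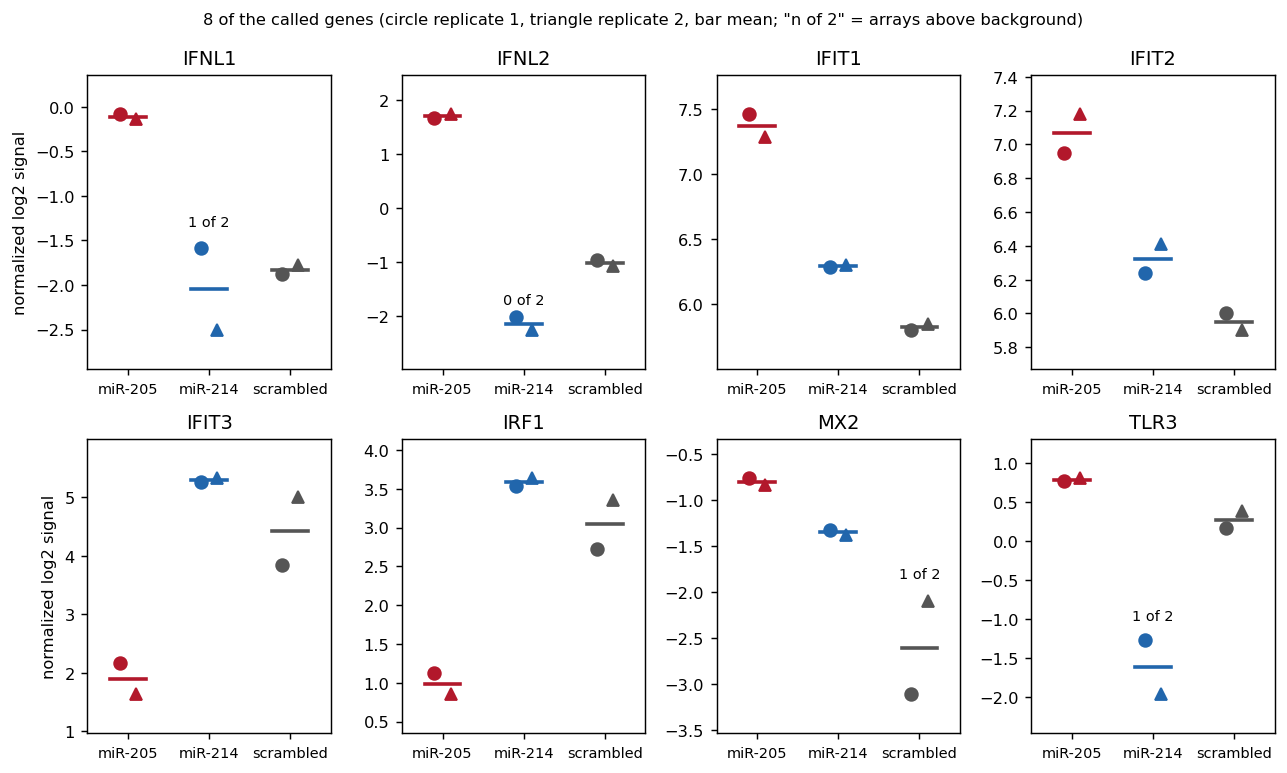
Normalized log2 signal of 8 called genes on each array, with a circle for replicate 1, a triangle for replicate 2 and a bar for the mean of the group; each panel has its own axis, and "n of 2" gives the arrays above background where it was not both. IFNL2 and IFIT1 stand high and IFIT3 and IRF1 low with miR-205-5p, and TLR3 stands low with miR-214-3p.

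Among the other antiviral effectors, MX2, a dynamin-like GTPase, was the only one called against the control. MX2 read -0.76 and -0.84 with miR-205-5p, -1.32 and -1.38 with miR-214-3p, and -3.11 and -2.1 with the control, where it was above background on 1 of 2 arrays. Both miRNA groups lay above both control arrays. On the processed signals the rise was 3.5-fold with miR-205-5p (log2 fold change 1.81 ± 0.34, adjusted p = 0.0235), and the difference of 2.39-fold with miR-214-3p did not pass the test (adjusted p = 0.114). Scrambled replicate 1, at -3.11, lay below the lowest signal well above background on that array (-2.24), so that neither size is known. With normexp MX2 had 0.49 with miR-205-5p, under the 2-fold limit, and the call was lost in 9 of 20 alternative settings, among them the omission of either miR-205-5p array (adjusted p = 0.0903 and 0.0954) or either miR-214-3p array (adjusted p = 0.0654). MX1, its relative, had a log2 fold change of 0.36 ± 0.27 with miR-205-5p (adjusted p = 0.364).
ISG20, an exonuclease that degrades RNA, read 6.96 and 6.98 with miR-205-5p, 5.88 and 5.83 with miR-214-3p, and 6.37 and 5.65 with the control. The miR-205-5p arrays were the highest, and the other groups overlapped. ISG20 was 2.16-fold higher with miR-205-5p than with miR-214-3p (adjusted p = 0.0295), a call lost in 8 of 21 alternative settings, with a log2 fold change of 0.89 with median scaling and 0.91 with quantile normalization or on the authors' table.
OAS2, which makes the oligoadenylates that activate RNase L, read 5.15 and 5.33 with miR-205-5p, 3.93 and 3.86 with miR-214-3p, and 4.62 and 4.31 with the control on its brightest probe. These groups did not overlap, and the difference between the miRNAs was 2.53-fold (log2 fold change 1.34 ± 0.18, adjusted p = 0.00727). Its 2 dimmer probes, annotated to other transcripts of the gene, gave -1.26 ± 0.86 (adjusted p = 0.294) and -1.48 ± 0.59 (adjusted p = 0.107) for the same difference, and the mean of the 3 probes was -0.47. The sign of OAS2 thus differed between probes. OAS3 and OASL passed no test.

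RSAD2, the antiviral enzyme viperin, read 0.14 and -0.47 with miR-205-5p, -0.4 and -1.09 with miR-214-3p, and -1.23 and -4.53 with the control. The second control array alone lay far below the other 5, and the control was above background on 1 of 2 arrays. The log2 fold change of 2.72 ± 1.05 with miR-205-5p did not pass the test (adjusted p = 0.125). Its size is not known, since -4.53 lay below the lowest signal well above background on that control array (-2.54). EIF2AK2, DDX60 and SP100, a kinase, a helicase and a nuclear body protein, passed no test, with log2 fold changes of -0.19 to 0.2 with miR-205-5p against the control. The probes of SP100 differed in sign: between the miRNAs the brightest gave 0.11 and the others -0.8 and -0.32, and with miR-214-3p against the control they gave -0.29, 0.14 and 0.2, none called.
BST2, the membrane tether of budding virions, was not called on its brightest probe, with -0.37 ± 0.16 for miR-205-5p against miR-214-3p (adjusted p = 0.136), while its other probe gave 1.22 ± 0.23 (adjusted p = 0.016).

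In the ISG15 system 2 conjugation enzymes fell, and no member was called against the control. ISG15, the modifier itself, read 8.91 and 8.98 with miR-205-5p, 8.15 and 8.04 with miR-214-3p, and 8.52 and 8.27 with the control. Its groups did not overlap, but the difference of miR-205-5p to the control, 0.55 ± 0.17, was not called (adjusted p = 0.0774). HERC5, the ligase, and USP18, which removes ISG15, had log2 fold changes of -0.09 and -0.63 with miR-205-5p and passed no test. HERC6 passed no test either, and was above background on neither miR-205-5p array and on 1 of 2 control arrays, so that no difference of it to the control can be given. UBE2L6, the conjugating enzyme, which stood in a list of 32 other pathway genes, read 0.6 and 0.64 with miR-205-5p, 3.02 and 3.04 with miR-214-3p, and 3 and 3.78 with the control. Both miR-205-5p arrays were far the lowest, and the log2 fold change against the control was -2.77 ± 0.28 (adjusted p = 0.00829). UBA7, the activating enzyme, fell as well, with -1.07 ± 0.21 (adjusted p = 0.027), a call lost in 10 of 21 alternative settings (-0.8 with normexp).

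PARP12, an ADP-ribosyltransferase, read 1.74 and 1.7 with miR-205-5p, 3.12 and 3.06 with miR-214-3p, and 2.97 and 3.22 with the control. The miR-205-5p arrays lay below the other 4, among which the groups overlapped. PARP12 fell 2.6-fold with miR-205-5p against the control (log2 fold change -1.38 ± 0.17, adjusted p = 0.01).
PARP14, a relative, read 1.59 and 1.39 with miR-205-5p, -0.23 and 0.14 with miR-214-3p, and 0.9 and 1.26 with the control. Its lowest arrays were those of miR-214-3p. PARP14 was 2.9-fold higher with miR-205-5p than with miR-214-3p (adjusted p = 0.00824), which normexp lowered to 0.77 on the log2 scale, under the 2-fold limit, and had a log2 fold change of -1.13 ± 0.22 with miR-214-3p against the control (adjusted p = 0.0641).
PARP9 read -1.93 and -1.74 with miR-205-5p, where neither array was above background, 0.05 and 0.21 with miR-214-3p, and -1.21 and 0.97 with the control. The control arrays lay on either side of the miR-214-3p arrays. PARP9 was at least 2.81-fold lower with miR-205-5p than in the control, which did not pass the test (adjusted p = 0.133).

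IFI35, a partner of the regulator NMI, read 1.48 and 1.51 with miR-205-5p, 3.04 and 3.04 with miR-214-3p, and 2.83 and 3.16 with the control. Both miR-205-5p arrays were lower than the other 4. IFI35 fell 2.83-fold with miR-205-5p against the control (log2 fold change -1.5 ± 0.18, adjusted p = 0.00953). Neither IFI35 nor IRF1 held GAAANNGAAA before its start, and both held TTCNNNGAA.
LGALS3BP, a secreted glycoprotein that binds galectins, read 3.72 and 3.77 with miR-205-5p, 4.99 and 5.07 with miR-214-3p, and 4.9 and 4.68 with the control. The miR-205-5p arrays were again the lowest and the miR-214-3p arrays the highest. LGALS3BP fell 2.07-fold with miR-205-5p against the control (log2 fold change -1.05 ± 0.16, adjusted p = 0.0153). This call was lost in 8 of 21 alternative settings, among them the 4 arrays alone (adjusted p = 0.0616) and the omission of either miR-205-5p array (adjusted p = 0.0726 and 0.0783).
TRIM21, a cytosolic antibody receptor and ubiquitin ligase, read -0.85 and -1.56 with miR-205-5p, with 1 of 2 arrays above background, 0.2 and 0.18 with miR-214-3p, and -0.69 and 0.12 with the control. The groups did not overlap. TRIM21 was 2.63-fold lower with miR-205-5p than with miR-214-3p (adjusted p = 0.0358), a call lost with normexp at -0.51 on the log2 scale (adjusted p = 0.0733) and in 9 of 20 alternative settings. The size is uncertain, since 1 of the miR-205-5p arrays was not above background.

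The membrane proteins of the IFITM family, which restrict viral entry, differed in sign. With miR-205-5p against the control, the log2 fold change was 0.73 ± 0.18 for IFITM1 (adjusted p = 0.0448), -0.49 ± 0.15 for IFITM2 (adjusted p = 0.0752) and -0.22 ± 0.17 for IFITM3 (adjusted p = 0.395). A dimmer probe of IFITM1 gave -0.15 ± 0.17 (adjusted p = 0.542). These genes are close relatives, and a probe of one may bind RNA of another. The guanylate-binding GTPases GBP1 and GBP2 passed no test in any comparison, nor did IFI6 and IFI44, and PLSCR1, a phospholipid scramblase, had 0.69 ± 0.17 (adjusted p = 0.045).
XAF1, which binds the cell-death inhibitor XIAP, and the interferon-induced gene IFI44L were dim. XAF1 read -1.9 and -2.93 with miR-205-5p, -0.74 and -1.1 with miR-214-3p, and -1.85 and -0.69 with the control. IFI44L read -2.36 and -2.73, -1.53 and -0.85, and -2.28 and -0.29 in the same order. Neither was above background on a miR-205-5p array, the control arrays lay 2-fold or more apart in both, and neither passed a test.
Not well above background on both arrays of any group, and therefore not tested, were CMPK2, CXCL10, CXCL11, EPSTI1, IFNB1, OAS1, SAMD9 and TRIM22. CXCL10, the interferon-induced chemokine, read -2.44 and -2.28 with miR-205-5p and at most -3.72 on the other arrays on its brighter probe. CXCL11, its relative, read -2.09 and -1.89 with miR-205-5p and at most -2.78 on the others. TRIM22 went the other way, with -3.84 and -2.4 with miR-205-5p and -2.03 and -2.1 with the control. No difference can be read from signals this dim. No probe matched IFI27 or SAMD9L.

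GAAANNGAAA stood before genes of both directions. Of the 5 genes that rose with miR-205-5p, 3 had a promoter entry (IFIT1, IFNL1 and IFNL2), and all 3 held GAAANNGAAA. All 5 genes that fell had an entry, and 3 of them (IFIT3, LGALS3BP and PARP12) held it. These are among the stretches printed above. TTCNNNGAA differed between the directions, standing before 2 of the 5 genes that fell (IFI35 and IRF1) and 0 of the 3 that rose.

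The other pathway genes, receptors, kinases, adaptors and inhibitors, numbered 32, of which 28 were tested. With miR-205-5p against the control 4 rose, 14.3% against the 4.79% of all genes given above, and 2 fell, 7.14% against 7.99%. IFNLR1, the receptor chain specific to lambda interferons, read 2.05 and 2.46 with miR-205-5p, -0.07 and -0.11 with miR-214-3p, and 1.42 and 0.79 with the control. Its groups did not overlap, and miR-214-3p was lowest. Its log2 fold change was 1.15 ± 0.27 with miR-205-5p against the control (adjusted p = 0.0406), a call lost in 12 of 21 alternative settings (0.73 with normexp), and 2.35 ± 0.27 against miR-214-3p (adjusted p = 0.0052). SOCS1, the feedback inhibitor of JAK kinases, rose by 1.27 ± 0.18 (adjusted p = 0.0133), and STING1, the adaptor of DNA sensing, by 1.01 ± 0.2 (adjusted p = 0.0264), calls lost in 6 and 14 of 21 alternative settings (0.69 and 0.41 with normexp). MAVS, the adaptor of RIGI and IFIH1, rose by 1.14 ± 0.17 on its brightest probe (adjusted p = 0.0148), while 1 of its 6 other probes was called lower, with -1.83 ± 0.44 (adjusted p = 0.0424), and the mean of its probes was -0.41.
Only NLRC5, the activator of MHC class I genes, was called with miR-214-3p against the control, with -1.27 ± 0.19 (adjusted p = 0.0405), 3.57% against 2.02% of all genes called lower. This call was lost in 10 of 21 alternative settings (-0.5 with normexp). Between the miRNAs, 4 were higher with miR-205-5p (IFNAR2, IFNLR1, MAVS and NLRC5) and 4 lower (IL10RB, MYD88, UBA7 and UBE2L6), 14.3% each against 9.18% and 11.3% of all genes. Of these calls, NLRC5 and UBA7 were lost in 7 of 21 alternative settings (0.48 and -0.74 with normexp), IFNAR2 in 4 of 21 (0.77 with normexp), MYD88 in 5 of 21 and IL10RB, above background on 1 of 2 miR-205-5p arrays, in 5 of 20. The sign of MAVS differed between probes here too, since 3 of its dimmer probes were called lower, with -2.53, -2.42 and -1.24, and the mean of its probes was -0.61.

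**Figure D4:**
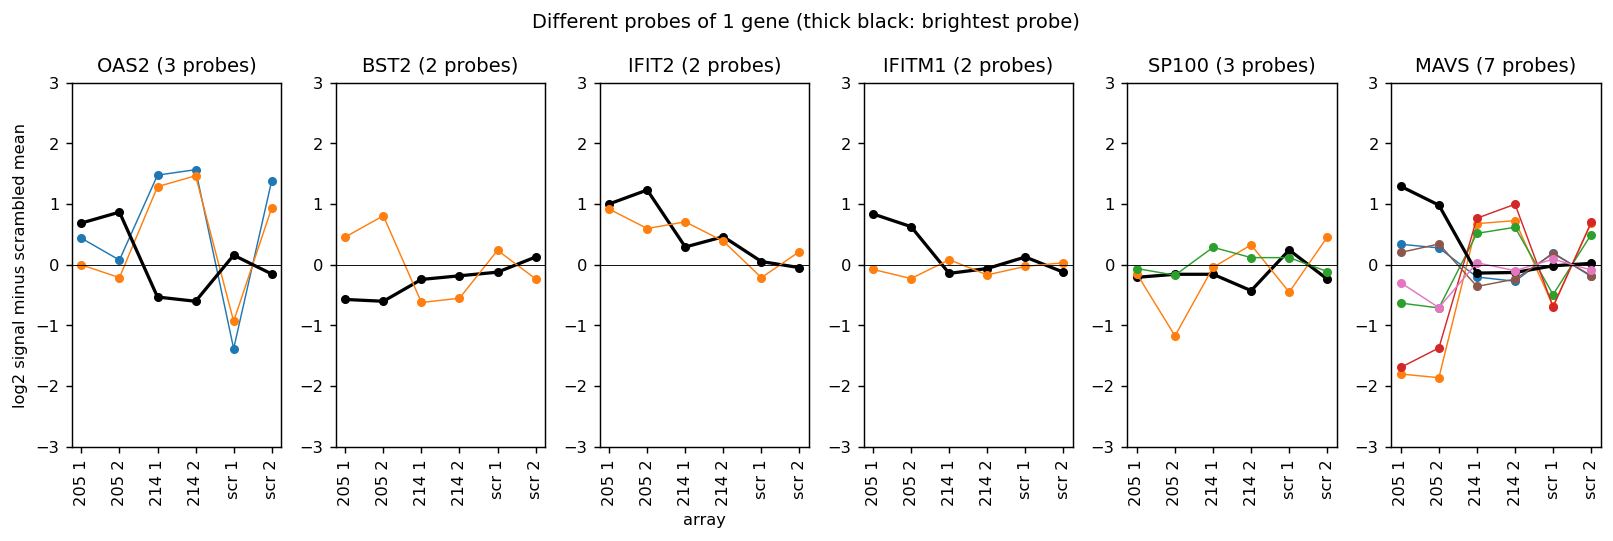
Log2 signal minus the scrambled mean of each kept probe of the 5 members with several kept probes and of MAVS, on the miR-205-5p, miR-214-3p and scrambled (scr) arrays, with the brightest probe in black and the other probes in colours. The probes of OAS2, BST2, SP100 and MAVS, and those of IFITM1 with miR-205-5p, run in different directions, and both probes of IFIT2 stand above the scrambled mean on all 4 miRNA arrays.

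The scrambled arrays differed by 2-fold or more in 6 of the 44 genes, 13.6% against 8.77% of all genes tested, and in 1 (IFIT3) with normexp or with probes above background on all 6 arrays. The 6 genes were IFI44L, IFIT3, MX2, PARP9 and XAF1, lower on replicate 1, and RSAD2, higher on it. Of these, IFI44L, MX2 and RSAD2 were not well above background on the lower of the control arrays, so that the size of their difference is not known. The other 3 differed by -2.18 (PARP9), -1.17 (XAF1) and -1.16 (IFIT3) on the log2 scale. The root mean square difference between replicates over the 44 genes was 0.83 for the control, a value that includes the dim reading of RSAD2, 0.34 for miR-205-5p and 0.3 for miR-214-3p, and over all genes tested it was 0.61, 0.47 and 0.29. Among the 5 genes that fell with miR-205-5p, 4 were lower on scrambled replicate 1 than on replicate 2, with a median difference of -0.34. Over all genes called lower the median was -0.3, over all genes called higher 0.24 and over all genes tested 0.14. Among the 5 genes that rose, 3 were lower on scrambled replicate 1, with a median difference of -0.06, so that replicate 1 leaned toward the miR-205-5p arrays for the genes that fell and not for those that rose. The part of this in the calls was not tested. Without scrambled replicate 1, 7 genes were called higher and 7 lower with miR-205-5p, 15.9% each against 8.86% and 11.7% of all genes. Without scrambled replicate 2 there were 5 and 5, 11.4% each against 4.41% and 6.61%.

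**Figure D5:**
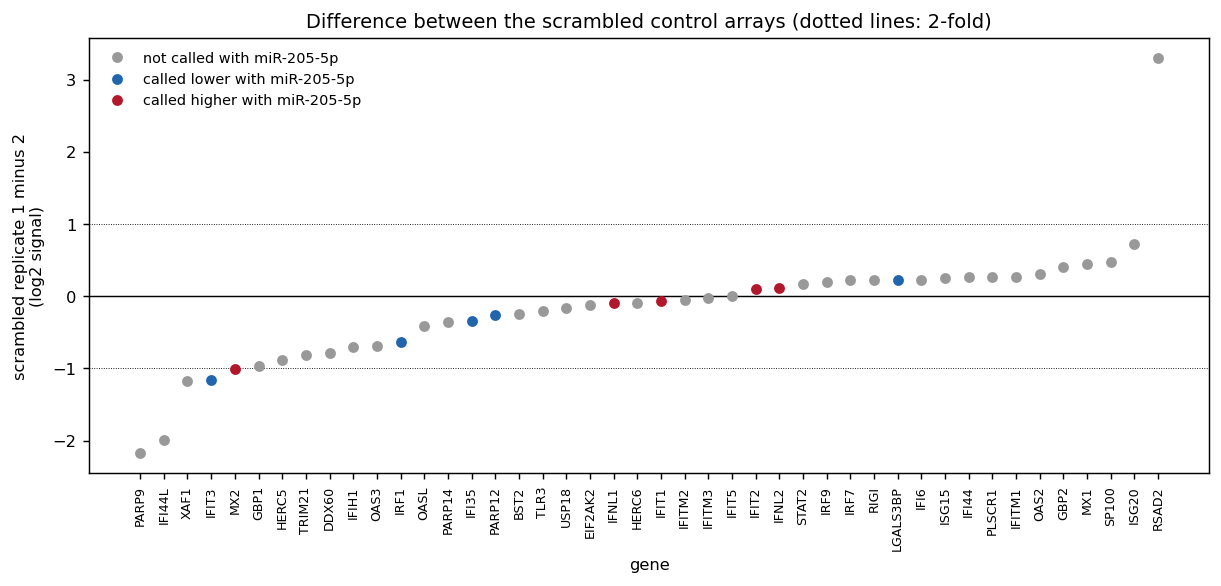
Scrambled replicate 1 minus scrambled replicate 2, in log2 signal, for each of the 44 genes in order, with the genes called with miR-205-5p in colour and dotted lines at 2-fold. Of the genes called lower, 4 of 5 lie below 0, and RSAD2, whose replicate 2 was not well above background, is plotted at its measured 3.3.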

How the data were processed

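The deposited scanner files, made by the authors with Agilent Feature Extraction 11.0, hold spot intensity after background subtraction. The deposited value table of log2 values, which the authors normalized, has identical sorted columns and a median of 3.49 in each, and served as an alternative. Control and outlier spots were left out, replicate spots were averaged per probe, and log2 of the processed intensity minus each array's 75th percentile was tested with limma 3.58.1 (R 4.3.3) on all 6 arrays, with Benjamini-Hochberg adjustment over the 18468 of 50599 probes well above background on both arrays of a group. A gene was represented by its kept probe with the highest mean signal. The number of arrays limits the precision.

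Members and lists were chosen with earlier results of these data known. Array values were given for the interferons, the members called, and those whose control arrays differed 2-fold, and values of other probes for members with several kept probes. Of the pathway list, called genes were named; ISG15, UBE2L6, IFNL3, CXCL10, CXCL11 and other members without a call were described after their values were seen. Alternatives covered background correction, scaling, filters, the fit, the test, array omissions and the choice of probe. A gene of the pathway list is not reported here. The script was tested on simulated data.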

Additional observations from a re-analysis of the deposited data

How the results depend on the processing

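For miR-205-5p against the control, the 5 higher genes became 2 with normexp background correction (offset 50, on the median spot signal), 3 with no filter on dim probes (IFIT1 and IFNL2 of the 5, and CXCL10, which was otherwise not tested), 2 with probes above background on all 6 arrays, 3 with only the 4 arrays compared, 0 by the methods' t-test after adjustment and 11 with no fold limit. The 5 lower genes became 0 with no filter, 3 with the 4 arrays and 0 by the adjusted t-test. For miR-214-3p, the 2 lower genes became 0 with normexp, no filter, the 4 arrays or the adjusted t-test, and 1 (PARP14) with the all-array filter. The 0 higher genes became 1 at an unadjusted p with the 2-fold limit kept. That gene was MX2, which was above background on 1 of 2 control arrays. Between the miRNAs, the 9 higher genes became 4 with normexp, 5 with median scaling and 15 with no fold limit. These counts stand without the shares of all genes in the same settings. They show how many calls were kept, and not how the set differed from all genes. The cause was not tested.

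Deviations of same-numbered arrays correlated at 0.107, 0.00783 and -0.0483. Such values cannot show whether arrays of the same number were prepared together, and the labels do not say. With the replicate number as a block, miR-214-3p had 0 genes lower, and the other counts stayed within 1.5 times.

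Leaving out 1 array at a time gave 0 to 7 higher and 0 to 7 lower genes for miR-205-5p, 0 to 3 and 0 to 2 for miR-214-3p, and 2 to 9 and 0 to 9 between the miRNAs, with medians of 0.18 to 0.38, -0.14 to -0.01 and 0.28 to 0.49. A group reduced to 1 array took its spread from the other groups. The ranges of counts stand here without the shares of all genes under the same omissions, which changed as well. They show how the number of calls varied, and not how the set differed from all genes.

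The median log2 fold change of the genes with miR-205-5p was 0.08 with normexp, -0.02 with median scaling (which moved that of all genes by -0.39), 0.33 with the percentile over probes above background on all arrays and 0.3 with the mean of a gene's probes. With miR-214-3p it was -0.11 with normexp, -0.2 with median scaling, -0.09 with the all-array filter and 0.02 with the mean of probes. Between the miRNAs it was 0.14 with normexp, 0.39 with quantile normalization, the authors' table or the mean of probes, and 0.21 with median scaling. The genes whose control arrays differed 2-fold numbered 1 with normexp or the all-array filter. With the mean of a gene's probes, OAS2 between the miRNAs reversed to -0.47, and MAVS to -0.61 there and to -0.41 for miR-205-5p against the control. Reversals were looked for only in genes called in that comparison.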
